A study of Mus musculus with 8 samples.

Results

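The subcortical maternal complex and the cytoplasmic lattices are protein assemblies of the mammalian oocyte that are stored for the early embryo. This account follows 8 genes for their components in mouse oocytes at postnatal day 1. They are Padi6, Nlrp4f, Nlrp5, Ooep, Tle6, Zbed3, Khdc3 and Nlrp2. All 8 have a row among the 21959 genes of the deposited table, matched from Ensembl gene identifiers to symbols.

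Tubes of oocytes from Rbpms2 knockout mice (4 libraries) were compared with tubes from wild-type mice (4 libraries). Rbpms2 encodes an RNA-binding protein, and the series title presents it as a regulator of early oocyte development. Both genotypes were sampled at postnatal day 1, when the ovary is forming its primordial follicles. Each tube held 5 to 10 hand-picked putative primordial oocytes, and their mRNA was amplified for 18 cycles. The labels state neither the strain, the deleted part of Rbpms2 nor whether tubes came from different animals. The p-values therefore reflect how much tubes varied, and that variation may be technical.

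The core of the complex is built in mouse from NLRP5 (also called MATER), OOEP (FLOPED) and TLE6. NLRP5 is a leucine-rich repeat scaffold of the NLR family, OOEP has a KH-like fold, and TLE6 carries WD repeats like the Groucho corepressors. KHDC3 (FILIA), a KH-like protein, and ZBED3, a zinc finger protein that binds axin, associate with this core. PADI6 belongs to the peptidylarginine deiminases and is needed for the lattices, fibrous arrays that fill the cytoplasm of the grown oocyte. NLRP4F and NLRP2 are further NLR family members linked to the complex. In mouse, loss of several of these maternal proteins stops embryos in early cleavage.

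Reads in the listed genes numbered 9554090 to 14526326 per knockout library and 8310773 to 11926922 per wild-type library, as recovered from the steps of the FPKM values (fragments scaled to gene length and library size). Rbpms2 RNA, the check of the labels, was at 38.4, 58.3, 31.0 and 42.5 FPKM in the knockout libraries, against 158.1, 167.4, 135.8 and 212.8 FPKM in wild type. All 5 germ cell markers were present in every library. Of these Sycp3 (856 to 1450 FPKM in knockout, 200.4 to 397 FPKM in wild type), Dazl and Ddx4 were called higher, while Kit (15.1 to 70.4 FPKM in knockout, 171.5 to 240.4 FPKM in wild type) and Figla were called lower. RNA of neighbouring ovarian cell types was present in unequal amounts. Summed stromal markers ranged from 7.51 to 307.4 FPKM in knockout and from 3.34 to 70.3 FPKM in wild type, with none of the 7 called. Summed granulosa cell markers ranged from 9.44 to 332.9 FPKM in knockout and from 1.57 to 39.9 FPKM in wild type. Of these 8 markers 1 was higher and 1 was under the filter and not tested. Summed immune markers spanned 5.12 to 443.7 FPKM in knockout and 7.05 to 23.6 FPKM in wild type, with 1 of 8 higher and 3 not tested. Knockout replicate 3 was the highest in them, with 112.1 FPKM of Lyz2, 96.2 FPKM of Tyrobp and 82.0 FPKM of C1qb, and with 0.660 FPKM of Ptprc. Summed endothelial markers ranged from 3.02 to 117.9 FPKM in knockout, the highest in replicate 1, and from 1.04 to 2.66 FPKM in wild type. Of these 6 markers 5 were not tested and 1 was not called. Erythroid markers summed to 99.6 to 3212 FPKM in knockout and 11.9 to 5344 FPKM in wild type, with none of 5 called. Surface epithelium markers summed to 0.558 to 15.9 FPKM in knockout and 4.85 to 7.88 FPKM in wild type, with 1 of 4 lower and 3 not tested. The part of these differences in the results was not tested. A fit without the 3 libraries highest in stromal markers (knockout replicates 2 and 3, wild-type replicate 3), chosen after seeing the data, still held knockout replicate 1 and called the 7 testable members lower.

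The upstream sequences of 4 of the genes are shown because they differ in their motifs. RefSeq sequences of build GRCm38.p6 were available for all 8. Each run below is the 250 bases before the RefSeq start site, read 5′ to 3′ on the gene's strand. Capitals mark matches to the E-box CANNTG and to the homeobox-type words TAATTA and TAATTG, searched on both strands. E-boxes are the class of site bound by FIGLA, and TAATTA and TAATTG are of the type bound by NOBOX, both transcription factors of the early oocyte.
Padi6, chr4:140742644-140742893, minus strand: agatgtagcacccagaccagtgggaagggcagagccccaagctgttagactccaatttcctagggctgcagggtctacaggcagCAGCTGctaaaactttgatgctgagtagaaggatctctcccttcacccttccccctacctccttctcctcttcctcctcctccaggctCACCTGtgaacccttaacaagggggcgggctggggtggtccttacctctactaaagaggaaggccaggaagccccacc
Nlrp5, chr7:23385639-23385888, plus strand: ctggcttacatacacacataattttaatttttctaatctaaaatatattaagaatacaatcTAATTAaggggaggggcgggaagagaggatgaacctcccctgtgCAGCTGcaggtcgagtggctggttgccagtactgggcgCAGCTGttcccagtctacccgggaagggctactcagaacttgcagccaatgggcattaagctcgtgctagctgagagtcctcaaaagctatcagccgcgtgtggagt
Zbed3, chr13:95323355-95323604, plus strand: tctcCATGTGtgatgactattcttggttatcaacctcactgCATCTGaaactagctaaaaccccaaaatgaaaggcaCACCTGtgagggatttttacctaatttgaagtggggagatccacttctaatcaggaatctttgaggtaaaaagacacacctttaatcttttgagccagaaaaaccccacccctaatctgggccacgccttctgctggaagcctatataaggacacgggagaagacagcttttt
Nlrp2, chr7:5351036-5351285, minus strand: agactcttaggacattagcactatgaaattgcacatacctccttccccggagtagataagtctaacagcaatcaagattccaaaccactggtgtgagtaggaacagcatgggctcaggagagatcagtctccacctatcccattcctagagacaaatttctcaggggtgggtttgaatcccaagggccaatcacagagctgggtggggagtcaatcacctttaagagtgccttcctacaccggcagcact

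An E-box match was found upstream of 7 of the 8 genes, and of 66.0% of 27025 RefSeq promoter windows of the same length. The window of a member was the one nearest its GENCODE M21 start, while the background took the first listed window of each gene. Nlrp5, Tle6 and Zbed3 had more than 1 window, so for them the choice could differ from that of the background. Nlrp2 was the member without a match. With 2 or more matches there were 5 members, against 31.7% of all windows. Khdc3 had 5 matches, of which 2 overlap, and Zbed3 had 3. In Padi6, Ooep and Khdc3 a match began at the same position, -78 from the start. TAATTA occurred upstream of Nlrp5 (4.90% of all windows) and TAATTG upstream of Ooep (7.34% of all windows). The exact word TATAAA was found upstream of 0 members, against 13.0% of windows. Variants of this word were not searched, so the members may still hold a TATA box. The Zbed3 sequence shown above holds the variant tatataa close to its start site. The RefSeq start lies 137 bases inside the gene as GENCODE M21 annotates it in Ooep, 173 in Tle6, 562 in Khdc3 and 261 in Nlrp4f, so their windows depend on the annotation. A match is a run of letters and does not show binding.

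**Figure D1:**
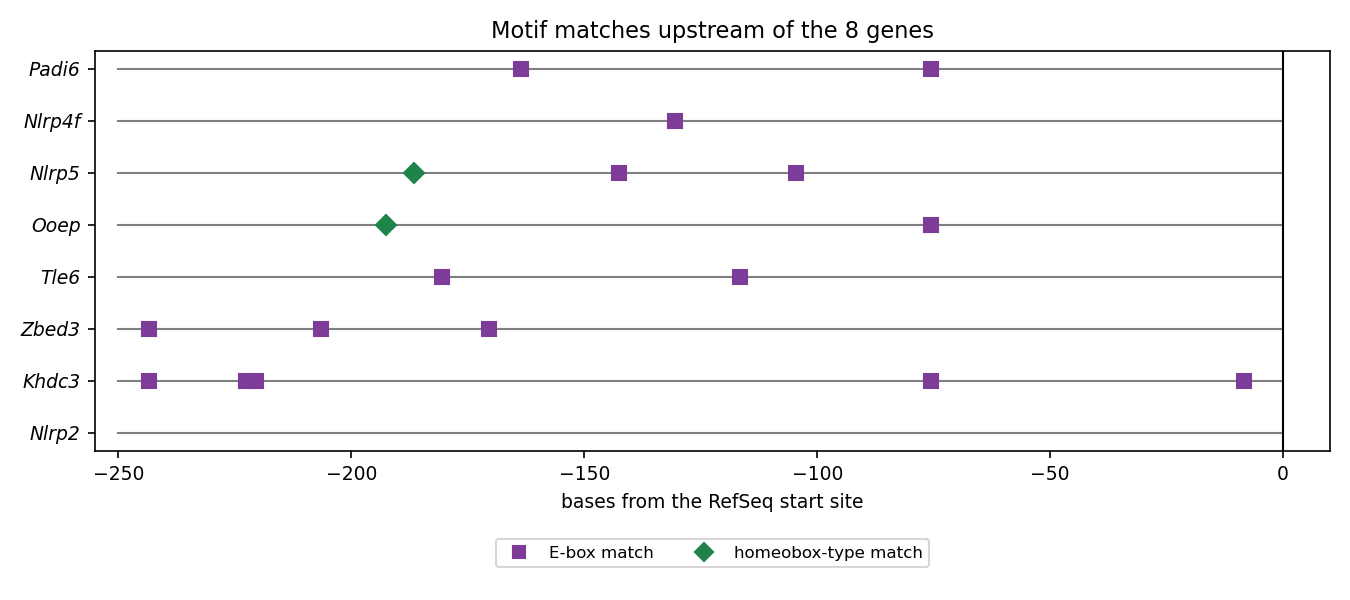
Positions of E-box matches (squares) and homeobox-type matches (diamonds) in the 250 bases before the RefSeq start site of each gene, in bases from the start on the x axis. Padi6, Ooep and Khdc3 each have a match that begins at -78, with different words, and Nlrp2 has no match.

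In Rbpms2 knockout oocytes the RNAs of 7 of the 8 genes were lower than in wild type, and the eighth, Nlrp2, was at or near 0 in both genotypes. Summed over the 8 genes, the level was 42.5 ± 10.9 FPKM in knockout and 2570 ± 821.2 FPKM in wild type (SD, n = 4 each), 60.5-fold lower. They took 0.0107% to 0.0187% of all FPKM in the knockout libraries, against 0.538% to 1.01% in the wild-type ones. Genes with at least 1 FPKM in 4 or more libraries were tested with limma on log2(FPKM + 1). The 7 testable members were each called lower (Benjamini-Hochberg adjusted p under 0.05), where 25.6% of 11235 tested genes were lower and 43.4% were called in either direction. No overlap between genotypes was seen in the 7, nor in 24.0% of tested genes in this direction. Padi6 and Khdc3 reached 1 FPKM in wild-type libraries alone, so the filter itself fixed that they were lower and did not overlap. As a description, the median log2 fold change of the 7 was -4.77, against -0.12 over all tested genes. In tubes of several cells, fewer cells carrying an RNA and less RNA per cell cannot be told apart.

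**Figure D2:**
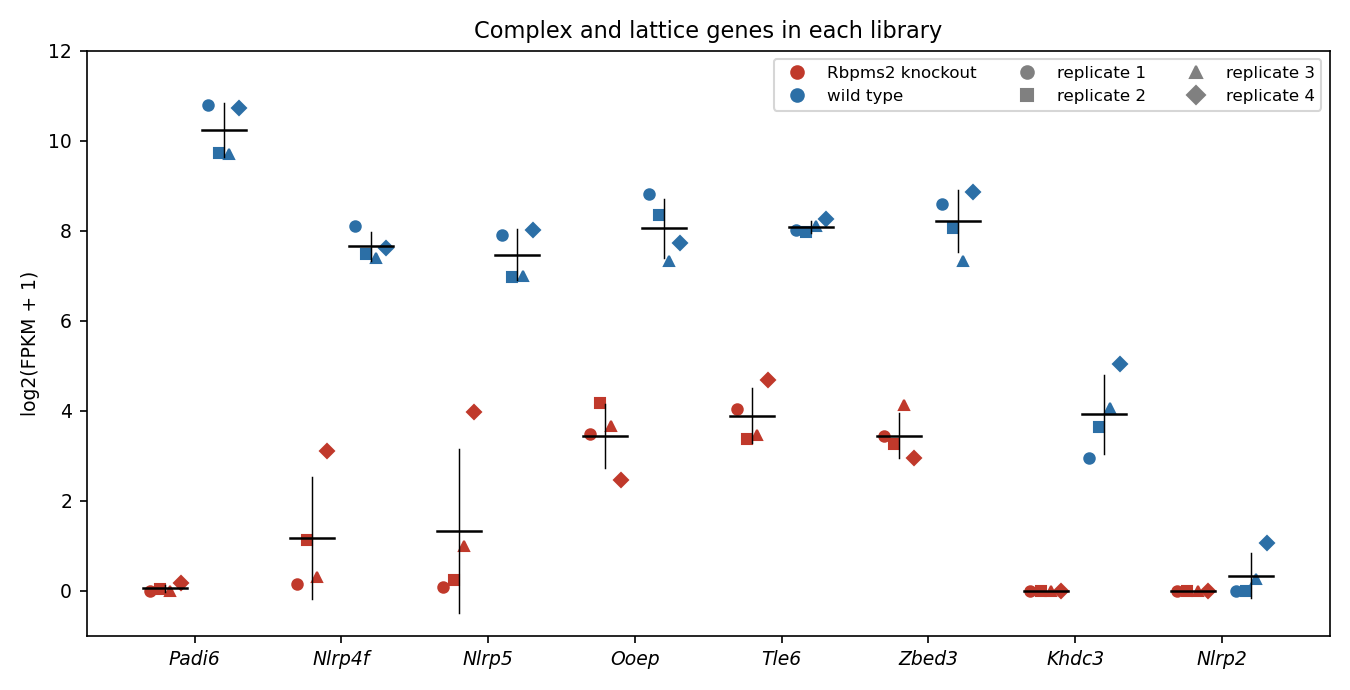
Levels of the 8 genes as log2(FPKM + 1), with a symbol per library, knockout in red left of wild type in blue, horizontal bars for the mean and vertical lines for 1 SD (n = 4). In 7 genes every knockout library lies below every wild-type library, and Nlrp5 and Nlrp4f stand higher in knockout replicate 4 than in the other knockout libraries.

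Padi6, the lattice gene, was the most abundant member in wild type and the one with the deepest fall. The gene (ENSMUSG00000040935) lies on chromosome 4 from 140727355 to 140742643 in GRCm38. Knockout replicates 1 to 4 had 0, 0.0272, 0 and 0.124 FPKM, against 1769, 849.4, 828.8 and 1688 FPKM in wild-type replicates 1 to 4. All knockout libraries were thus near the floor of detection, while the wild-type libraries formed a high pair (replicates 1 and 4) and a lower pair. The means were 0.0378 ± 0.0588 FPKM in knockout and 1284 ± 514.5 FPKM in wild type (SD, n = 4 each). Padi6 had a log2 fold change of -10.18 (standard error 0.28, limma adjusted p = 1.08e-08), rank 1 among the falls of all tested genes. The knockout value rests on 4 reads, 3 of them in replicate 4, against 128123 reads in wild type. The depth-scaled ratio of pooled reads was 39553, and counting error alone (exact 95% Poisson interval of the knockout reads) put it between 15448 and 145170. Without knockout replicate 4 the ratio of mean FPKM was 141810, against 33997 with all libraries. In wild type Padi6 held rank 16 of all tested genes by mean FPKM.

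Nlrp4f, an NLR family gene linked to the lattices, was low in every knockout library. Knockout replicates 1 to 4 had 0.110, 1.19, 0.239 and 7.62 FPKM, against 273.7, 178.7, 166.6 and 196.6 FPKM in wild type. Knockout replicate 4 stood above the other 3, and still far below any wild-type library. The log2 fold change of Nlrp4f was -6.48 (standard error 0.55, limma adjusted p = 1.18e-05). Mean levels differed 89.0-fold, and 397.3-fold without knockout replicate 4. The gene lies on chromosome 13 from 65177111 to 65205977. It belongs to a family of similar Nlrp4 copies to which reads could be misassigned, which was not examined.

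Nlrp5, the scaffold of the core complex, was also uneven across the knockout libraries. Knockout replicates 1 to 4 had 0.0529, 0.184, 1.005 and 14.8 FPKM, against 237.2, 124.7, 126.4 and 258.4 FPKM in wild type. Replicate 4 held 685 of the 759 Nlrp5 reads found in knockout, and the groups did not overlap. On the log2(FPKM + 1) scale Nlrp5 changed by -6.15 (standard error 0.73, limma adjusted p = 9.75e-05). Its mean was 46.6-fold lower in knockout with all libraries and 450.9-fold lower without knockout replicate 4. The gene is on chromosome 7, from 23385889 to 23441922.

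Ooep and Tle6, which join NLRP5 in the core, fell as well. Ooep (chromosome 9, 78376109 to 78378725) had 10.2, 17.0, 11.6 and 4.50 FPKM in the knockout libraries, against 449.4, 327.2, 160.5 and 209.9 FPKM in wild type. Its lowest knockout value was in replicate 4, the library with the highest Nlrp5. Ooep changed by -4.62 on the log2 scale (standard error 0.39, limma adjusted p = 1.22e-05), and 3.77% of the wild-type mean remained. Tle6 (chromosome 10, 81590904 to 81601073) had 15.4, 9.40, 10.0 and 24.9 FPKM in knockout, against 258.4, 249.2, 274.4 and 306.8 FPKM in wild type. It was the steadiest member across wild-type tubes, with a coefficient of variation of 9.30%, and the one with the largest remaining share, 5.48% of the wild-type mean. Tle6 fell with a log2 fold change of -4.20 and a standard error of 0.27 (limma adjusted p = 2.47e-06).

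The associated genes Zbed3 and Khdc3 both fell, from very different levels in wild type. Zbed3 (chromosome 13, 95323612 to 95337841) had 9.77, 8.57, 16.6 and 6.75 FPKM in knockout, against 386.9, 267.3, 159.3 and 466.8 FPKM in wild type. Every knockout value was below the lowest wild-type value, in wild-type replicate 3. Zbed3 had a log2 fold change of -4.77 (standard error 0.35, limma adjusted p = 4.56e-06). Khdc3 (chromosome 9, 73101836 to 73104438) had 0 reads in every knockout library, against 6.70, 11.5, 15.7 and 31.8 FPKM in wild type. Against a floor of 3 reads over the knockout group it was at least 535.3-fold lower (limma adjusted p = 4.27e-05). The fitted fold change of Khdc3 depends on the pseudocount and is no bound. An annotated gene that overlaps Khdc3 on the same strand, Gm20509, was listed at 0 in all libraries. Reads in the stretch they share could have been left uncounted for both genes, which was not examined.

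Nlrp2 stood outside this pattern because it was barely present. It had 0 reads in every knockout library and 0, 0, 0.203 and 1.10 FPKM in wild-type replicates 1 to 4, from 38 reads in all. Nlrp2 did not pass the filter on low values. Its mean log2(FPKM + 1) differed by -0.33 between knockout and wild type (exact permutation p = 0.429). Its difference between genotypes was not detectable at this depth. Nlrp2 lies on chromosome 7, from 5298547 to 5351035, and overlaps Gm5065 on the other strand.

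Within wild type the members fell into 4 levels. Padi6 was at 1284 FPKM, above the next member in all 4 libraries. Zbed3, Ooep, Tle6, Nlrp4f and Nlrp5 followed at means of 320.1, 286.8, 272.2, 203.9 and 186.7 FPKM, and each overlapped its neighbour in this order. Khdc3 at 16.4 ± 10.9 FPKM and Nlrp2 at 0.325 ± 0.523 FPKM (SD, n = 4 each) lay below them without overlap. In knockout the order was Tle6, Ooep, Zbed3, Nlrp5, Nlrp4f and Padi6, with means from 14.9 to 0.0378 FPKM. Neighbouring ranges overlapped at every step of that knockout order.

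The make-up of the 8-gene sum differed between the genotypes. Padi6 took 0% to 0.211% of it in the knockout libraries, against 42.3% to 53.4% in the wild-type ones. Tle6, Ooep and Zbed3 took means of 34.2%, 28.1% and 26.2% in knockout, against 11.4%, 11.4% and 12.2% in wild type. Khdc3 contributed 0% in knockout and 0.198% to 1.01% in wild type. Knockout replicate 4 had a make-up of its own, with 25.2% from Nlrp5 and 13.0% from Nlrp4f, against at most 2.55% and 3.27% in the other knockout libraries.

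**Figure D3:**
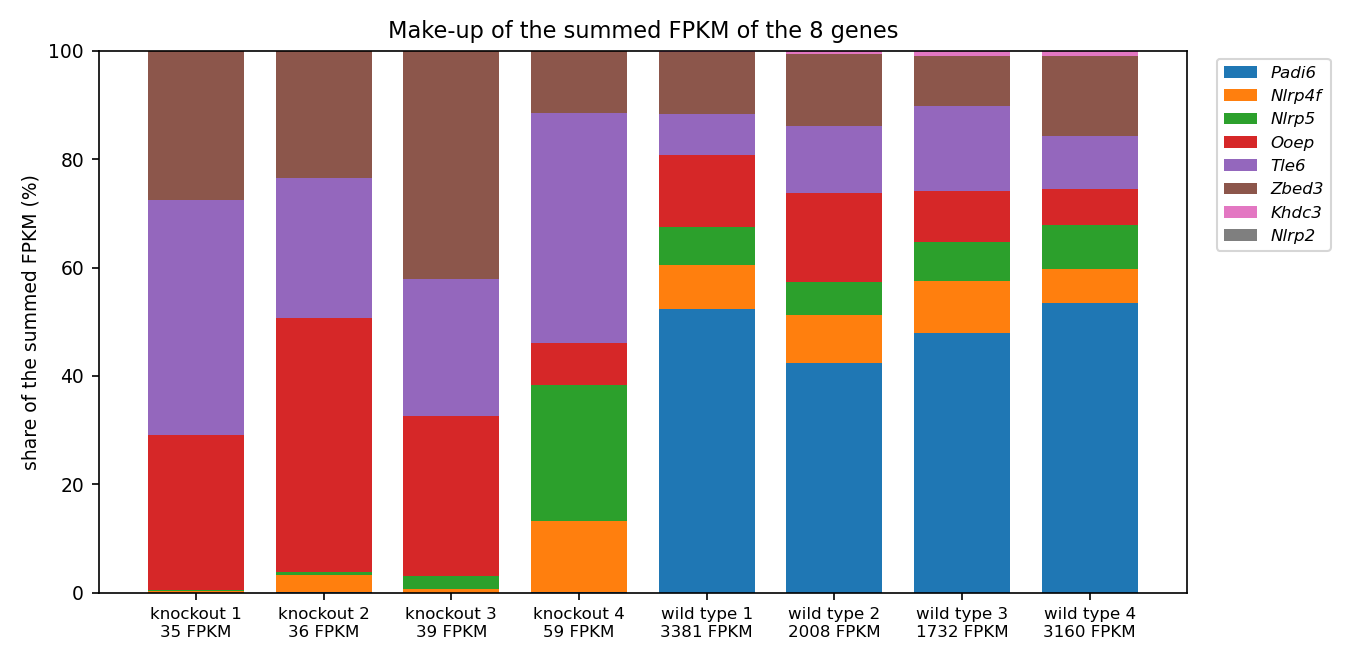
Share of each gene in the summed FPKM of the 8 genes, as stacked bars from 0 to 100% for the 4 knockout libraries and then the 4 wild-type libraries, with the sum under each bar. Padi6 fills 42.3% to 53.4% of the wild-type bars and at most 0.211% of the knockout bars, which are made mostly of Ooep, Tle6 and Zbed3.

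Whether a member changed by more or less than the rest was tested by setting its log2(FPKM + 1) in each library against the mean of the other 7. With 4 against 4 libraries the smallest possible two-sided exact permutation p is 0.0286, and 8 genes were tested. Padi6 fell by 5.83 more than the others on the log2 scale (exact permutation p = 0.0286, adjusted p = 0.0762). Tle6 fell by less, with a difference of 1.01 (exact permutation p = 0.0286, adjusted p = 0.0762). The value of Nlrp2, 5.43, is the fall of the other members seen from a gene at 0 in all knockout libraries and in 2 of the wild-type ones, and is no change of its own. Nlrp5 (-1.22), Nlrp4f (-1.60), Khdc3 (1.33), Ooep (0.53) and Zbed3 (0.35) had larger p. No difference passed the adjusted threshold on the values as deposited, and the pseudocount moved several of them. Without knockout replicate 4, the differences of Padi6 (-5.68), Nlrp5 (-2.04), Nlrp4f (-2.14), Zbed3 (0.73) and Nlrp2 (5.62) had an adjusted p of 0.0457 (exact permutation test). With Nlrp2 left out of the 8 tests, 0 of the remaining 7 passed. The adjusted p of Padi6, Nlrp5, Nlrp4f and Zbed3 was then 0.05 (exact permutation test), equal to the threshold and not under it. With so few possible splits, such a tie cannot decide whether these members differed.

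Knockout replicate 4 was high in some members and low in others. Nlrp5, Nlrp4f, Tle6 and Padi6 were highest there among the knockout libraries, Ooep and Zbed3 lowest. The Padi6 value in it rests on 3 reads, near the floor of detection. Among 2793 called lower genes with any knockout signal, replicate 4 was the highest knockout library for 16.0%. In that library the summed stromal, granulosa and immune markers were 9.21, 9.46 and 14.0 FPKM, within the range of the wild-type libraries. Its endothelial markers (5.45 FPKM) were above that range, its surface epithelium markers (1.05 FPKM) below it, and its germ cell markers (2703 FPKM) the highest of all 8 libraries. The part of these in its values was not tested. Rbpms2 stood at 42.5 FPKM in it, between the other knockout values. The fall of the 7 members was called in a fit without it as well.

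Genes whose products are found with the lattices or bind members of the complex mostly fell too. Of 16 tested partners 13 were lower and 1 higher, with a median log2 fold change of -1.41. Over all tested genes 25.6% were lower and 17.7% higher. Nlrp14, Fbxw18 and Fbxw24 reached 1 FPKM in wild-type libraries alone, so the filter itself fixed their direction. Skp1a, a subunit of SCF ubiquitin ligases, averaged 720.4 ± 131.7 FPKM in knockout and 1213 ± 391.8 FPKM in wild type (SD, n = 4 each), a log2 fold change of -0.72 (limma adjusted p = 0.0268). The 14-3-3 gene Ywhaz was at 246.1 ± 23.8 FPKM in knockout and 407.1 ± 104.8 FPKM in wild type (SD, n = 4 each; limma adjusted p = 0.0189). Cfl1, which encodes the actin-severing protein cofilin, was 2.18-fold lower at 174.9 ± 44.6 FPKM in knockout and 380.5 ± 64.3 FPKM in wild type (SD, n = 4 each; limma adjusted p = 0.00189). Ywhae, another 14-3-3 gene, was the 1 partner called higher (log2 fold change 0.75, limma adjusted p = 0.0163), a call that ended after removal of each library's trend against GC content and without wild-type replicate 4. Without knockout replicate 4 there were 2 partners called higher.

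Members of the same gene families were examined next. Of 32 measured paralogs 13 passed the filter on low values, and of these 10 were lower and 0 higher (median log2 fold change -1.44). The shares over all tested genes were 25.6% lower and 17.7% higher. Nlrp14, Khdc1b, Padi2 and Khdc1c passed at 1 FPKM through wild-type libraries alone, so the filter itself fixed their direction. Nlrp14, an oocyte NLR gene on both this and the partner list, was at 0.0463 ± 0.0742 FPKM in knockout and 254.0 ± 70.01 FPKM in wild type (SD, n = 4 each; limma adjusted p = 1.09e-08). Dppa5a, a KH-domain gene beside Ooep, kept 66.1 ± 23.8 FPKM in knockout against 231.7 ± 59.3 FPKM in wild type (SD, n = 4 each; limma adjusted p = 0.000412). Khdc1b, of the same KH-like family, was at 0.131 ± 0.261 FPKM in knockout and 63.7 ± 24.6 FPKM in wild type (SD, n = 4 each; limma adjusted p = 1.33e-06). The count of paralogs called higher was 1 without a filter, after GC correction and without wild-type replicate 3.

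In a list of other maternal-effect genes, which also held the egg coat genes Zp1, Zp2 and Zp3, 17 of 21 tested were lower and none higher. Among all tested genes 25.6% were lower and 17.7% higher. Zp1, Zp2, Zp3, H1foo, Btg4, Bcl2l10 and Zar1 reached 1 FPKM in wild-type libraries alone, so the filter itself fixed their direction. The median log2 fold change of this list was -3.24, with the egg coat genes as its deepest falls (Zp1 -7.67). Dppa3, which protects DNA methylation in the zygote, was the most abundant gene of the list in wild type. It had 25.3, 405.4, 55.3 and 55.9 FPKM in the knockout libraries, and its mean was 22.3-fold lower in knockout, or 66.5-fold without knockout replicate 2. Zp3 and Zp2, which encode egg coat glycoproteins, were next, with log2 fold changes of -9.20 and -8.94. Of 9 oocyte transcription factor genes 7 were lower and none higher (median log2 fold change -2.35). The direction of Tbpl2, at 1 FPKM or more in wild type alone, was likewise fixed by the filter. Figla was at 177.7 ± 85.1 FPKM in knockout and 764.5 ± 55.9 FPKM in wild type (SD, n = 4 each). Sohlh1, a helix-loop-helix factor of early oocytes, averaged 115.1 ± 133.4 FPKM in knockout and 748.3 ± 153.8 FPKM in wild type (SD, n = 4 each), 6.50-fold lower, or 15.1-fold without knockout replicate 2. Nobox was at 5.95, 96.2, 14.98 and 56.4 FPKM in the knockout libraries, against 508.4, 406.3, 332.2 and 561.7 FPKM in wild type. Sohlh2 and Taf4b were not called. Without knockout replicate 3, 1 of these factor genes was called higher. The lists were compared by counts and medians only, and no test of the difference between lists was made.

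**Figure D4:**
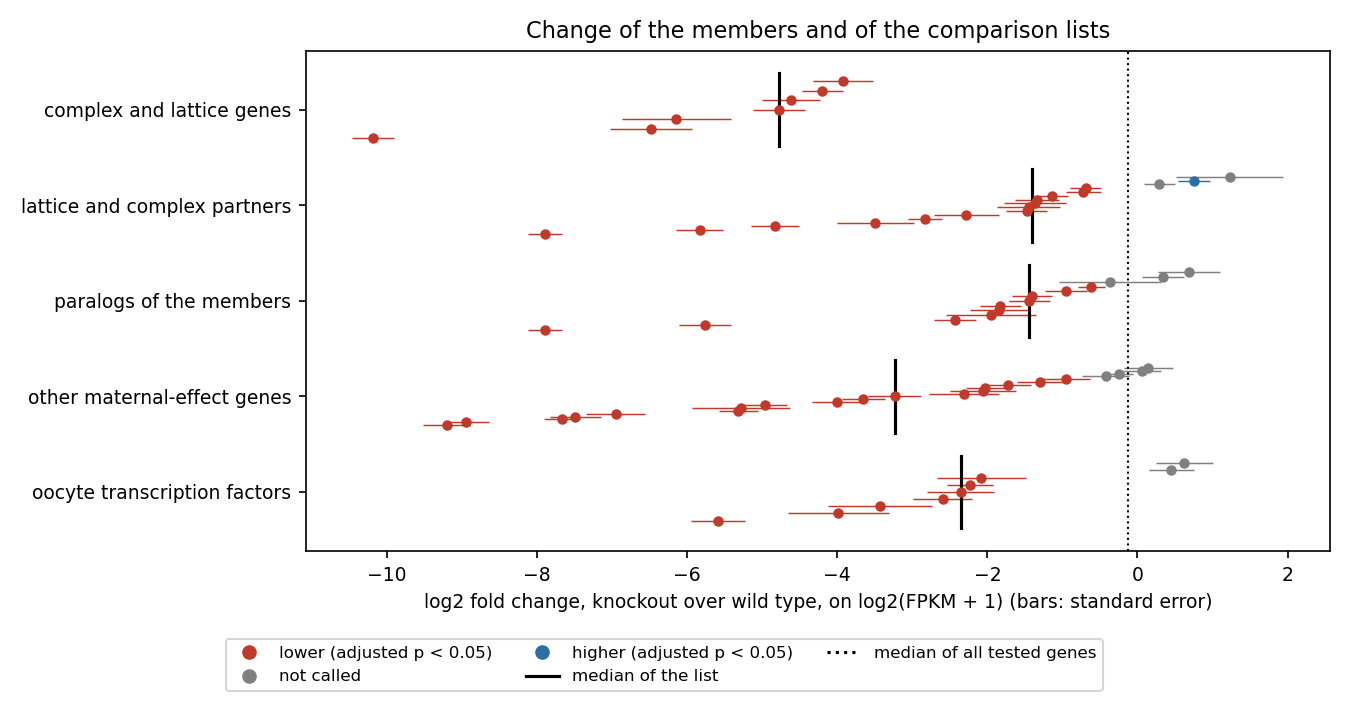
Log2 fold change (knockout over wild type, on log2(FPKM + 1)) of each tested gene with its standard error, for the 7 tested complex and lattice genes and 4 comparison lists, with red for lower, grey for not called and blue for higher. Vertical bars mark each list's median and the dotted line marks the median of all tested genes (-0.12).

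The genes with the most similar profiles were found by Euclidean distance of log2(FPKM + 1) over the 8 libraries among all tested genes. Nlrp5 and Nlrp4f were nearest to each other (distance 1.63), as were Ooep and Zbed3 (distance 1.66). Padi6 was nearest to Zp3 (1.79), Tle6 to the histone demethylase gene Kdm1b (1.45) and Khdc3 to Zar1 (0.452), a maternal-effect gene for an RNA-binding zinc finger protein that also had 0 reads in every knockout library. Nearest to the mean profile of the 8 were 4930562C15Rik, Tesc, Pabpc4, Pinlyp and Ndrg4, at distances of 1.16 to 2.25.

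Genes beside the members on the chromosome did not follow a single direction. Ooep lies between Dppa5a, which fell, and Ddx43, a germ cell helicase gene 17.1 kb away that rose with a log2 fold change of 1.99 (limma adjusted p = 0.000485). Tle2 ends 0.059 kb from the end of Tle6 on the opposite strand and was not called, with 2.38 ± 4.11 FPKM in knockout and 2.08 ± 1.60 FPKM in wild type (SD, n = 4 each). Padi6 lies between Rcc2, which fell (log2 fold change -2.51, limma adjusted p = 0.000205), and its paralog Padi4, which had 0 reads in every knockout library and 0.776 ± 0.336 FPKM in wild type (SD, n = 4). Beside Khdc3, Rab27a fell (log2 fold change -2.67, limma adjusted p = 0.000132), whereas Rsl24d1 was not called (limma adjusted p = 0.0826). Aggf1, next to Zbed3, was not called (limma adjusted p = 0.607). The genes listed next to Nlrp5, Nlrp2 and Nlrp4f were under the filter.

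RBPMS family proteins are known to bind RNA at pairs of CAC. Such pairs, CAC followed by CAC after 1 to 12 bases, were counted in the longest coding transcript of each gene in GENCODE M21. Padi6 had a single pair in 2333 bases, shown because this member fell most: CACggcCAC, with the CAC copies in capitals, starting at base 372 of the transcript. That density is at percentile 3.70 among tested genes. Tle6 had 10 pairs in 2015 bases (percentile 83.8) and Zbed3 8 pairs in 1945 bases (percentile 73.8). Nlrp5 had 10 pairs in 3508 bases (percentile 50.3), 1 of them in its short 3′ UTR (percentile 93.9 by density there): CACgtcctagCAC. Ooep, Nlrp4f, Khdc3 and Nlrp2 were at percentiles 8.74, 22.6, 24.7 and 58.2. In the 3′ UTRs of Padi6, Tle6, Nlrp4f, Khdc3 and Nlrp2 no pair was found, while that of Zbed3 held 6 (percentile 82.8) and that of Ooep 2 (percentile 30.9). The median over tested genes was 2.84 pairs per kb, with 3.46 in genes called lower and 2.06 in genes called higher. A pair is a run of letters and does not show binding.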

How the data were processed

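RNA was measured in 8 libraries of hand-picked oocytes, 4 per genotype. Per the labels' protocols mRNA was amplified for 18 cycles, and cutadapt, HISAT2, HTSeq and build GRCm38 (mm10) are listed per the submitters' processing notes. For the tools' versions and the gene annotation, the entry is: not given in the sources used here. FPKM per gene and library were deposited by the authors, scaled to gene length and library size. Multiplied by union exon lengths of GENCODE M21 (21902 of 21959 genes), 97.1% to 97.6% of values per library came out whole within 0.02 reads. Those reads gave depths, floors (3 reads over a group) and a limma-voom alternative. Without molecular identifiers amplified reads may repeat a molecule, and the floors and the interval given hold counting error alone. Every pair of libraries within a genotype differed beyond sampling noise, the closest with a chi-square of 33.6 for each degree of freedom.

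Genes with 1 FPKM or more in 4 libraries were tested with limma 3.58.1 (R 4.3.3) on log2(FPKM + 1), eBayes with trend, genotype as the only term, Benjamini-Hochberg over 11235 genes. Fold changes on that scale understate low genes, and fold values given as ratios are of mean FPKM. The steps were tested on simulated data. Members and lists were chosen with earlier results of these data known. The genes named are the members, Rbpms2, the 3 highest wild-type genes per list, list members called against their list, nearest profiles and chromosome neighbours. Sohlh2, Taf4b and Nobox's values per library were added after values were seen. Alternatives were pseudocounts of 0.1 and 5, no filter or 5 FPKM, quantile or median-of-ratios scaling, a block for replicate number, GC correction (loess, span 0.5) with and without the block, robust eBayes, limma-voom and each library left out. Promoters came from RefSeq. Figures were drawn with matplotlib 3.10.9, and tables handled with pandas 2.3.3 in Python 3.11.15.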

Additional observations from a re-analysis of the deposited data

Results flagged for a closer look

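Knockout replicate 4 stood far from the other 3 knockout libraries in 3 of 18 groups of values examined. Nlrp5 was at 14.8 FPKM there, with a gap to the next library that took 0.935 of the group's range. Nlrp4f was at 7.62 FPKM, with a share of 0.856. The summed FPKM of the 8 members was 58.6 in that library, with a share of 0.831, just past Dixon's critical value for 4 samples. Chance flags about 1 group in 20 where values are normally distributed, which was not shown for FPKM near the floor. The flags were set on FPKM and not on the log2(FPKM + 1) scale of the tests. The sum holds Nlrp5 and Nlrp4f, so the 3 are not independent.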

How the results depend on the processing

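The 7 tested members stayed lower and called in every alternative run that tested them. Over the 12 alternatives other than leaving out 1 library, the log2 fold change ran from -15.04 to -7.91 for Padi6, -9.31 to -1.97 for Khdc3 and -4.35 to -3.72 for Tle6. Leaving out 1 library gave 1516 to 1949 genes higher and 2393 to 3011 lower, and the other alternatives 1617 to 2353 and 2156 to 2955. Median-of-ratios scaling moved the median of all genes, -0.12 as deposited, to -0.00021 and the calls to 2310 higher and 2506 lower. limma-voom on the recovered reads called 1812 higher and 2794 lower. Partners called higher numbered 0 after GC correction and 0 to 2 when 1 library was left out. Paralogs called higher numbered 1 without a filter, 1 after GC correction and 1 after GC correction with the replicate block, and 0 to 1 when 1 library was left out. Transcription factors called higher numbered 1 without the 3 libraries highest in stromal markers, which was chosen after seeing the data, and 0 to 1 when 1 library was left out. Relative to the other 7 members, GC correction gave Padi6 (-5.62), Tle6 (1.44), Khdc3 (1.90), Nlrp2 (5.34) and Nlrp4f (-2.33) an adjusted p of 0.0457 in the exact permutation test. This rests on counting Nlrp2, near 0 in both genotypes. Without it as a test (chosen after seeing the data) 0 of 7 passed in any setting. The lowest adjusted p was then 0.05 (exact permutation test), equal to the threshold. That value came after GC correction, and also without knockout replicate 4. Nlrp2 stayed in the mean of the other members, and Khdc3's value is set by the pseudocount. Pseudocounts turned the direction of Ooep (-0.21) and Zbed3 (-0.40) at 5 and of Khdc3 (-0.89) at 0.1, which shows scale dependence. When 1 library was left out these differences ran from -5.94 to -5.68 for Padi6, -2.04 to -0.84 for Nlrp5, 0.20 to 1.10 for Ooep, 0.85 to 1.15 for Tle6, 0.90 to 1.59 for Khdc3, 0.054 to 0.73 for Zbed3, 5.24 to 5.62 for Nlrp2 and -2.14 to -1.30 for Nlrp4f. The labels do not say whether replicate numbers pair the tubes. Correlations of same-numbered deviations were 0.185, 0.0158, 0.361 and -0.053, and those of differently numbered ones ran from -0.341 to 0.33. These values do not settle whether tubes were paired. With the replicate block 2113 genes were higher and 2921 lower, and no member's call changed. Other causes were not tested. Depth limits Nlrp2, and the knockout levels of Padi6 and Khdc3.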
